A study of Mus musculus with 8 samples.

Results

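The genes described here encode the enzymes that write and erase methylation of lysine 27 on histone H3 (H3K27): the demethylase genes Kdm6a and Kdm6b, and the genes of the core of Polycomb repressive complex 2 (PRC2), Ezh1, Ezh2, Eed and Suz12. They were chosen by name, as the probe sets whose number is the gene's Entrez number, and all 6 were found among the 24011 genes measured. The choice was made with the changes between hepcidin and PBS in view, so those changes are given as a description, without a test. The data are 8 Affymetrix whole-transcript arrays of primary bone marrow-derived macrophages from wild-type mice aged 8 to 10 weeks. The cells had been grown for 7 days with L cell-conditioned medium as the source of M-CSF. Of these, 4 samples had received hepcidin at 10 µg/ml for 1 h before lysis and 4 had received PBS. The sample titles number the arrays 1 to 4 in each group, and the labels do not say whether a number stands for an animal or a culture. The p-values below therefore reflect the spread among these samples alone, and that spread may be technical.

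PRC2 places methyl groups on H3K27, a mark of silenced genes. EZH2 or its relative EZH1 is the catalytic subunit, EED binds the finished mark and stimulates the enzyme, and SUZ12 holds the complex together. EZH2 is abundant in dividing cells and is a target of the E2F factors that drive DNA replication, while EZH1 is the form known from cells that no longer divide. KDM6A (UTX) and KDM6B (JMJD3) remove the mark. Kdm6b is known as a gene that NF-kB switches on within hours when macrophages meet bacterial products, and its protein acts on the Irf4 gene in alternative activation.

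Promoter sequence is shown for Ezh2 and Suz12, whose levels were alike over the 8 arrays (Pearson's r 0.903). It is also shown for Ezh1, the other catalytic subunit gene, which did not follow them. RefSeq promoters (GRCm38.p6) were matched for 5 of the 6 genes, Kdm6a, Ezh1, Ezh2, Eed and Suz12. Each line gives the 250 bases before the annotated start, 5′ to 3′ on the strand of the gene. Capitals mark CCAAT boxes, the word bound by NF-Y, on either strand. On the last line, 30 bases from the start of Ezh2, capitals mark a word bound by E2F factors.
Ezh2, chr6:47595031-47595280, minus strand: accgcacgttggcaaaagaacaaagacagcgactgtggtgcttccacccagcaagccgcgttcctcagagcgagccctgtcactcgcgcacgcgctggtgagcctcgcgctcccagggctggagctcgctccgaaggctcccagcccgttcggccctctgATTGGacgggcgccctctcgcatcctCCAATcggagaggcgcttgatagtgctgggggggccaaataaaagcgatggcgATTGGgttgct
Suz12, chr11:79992856-79993105, plus strand: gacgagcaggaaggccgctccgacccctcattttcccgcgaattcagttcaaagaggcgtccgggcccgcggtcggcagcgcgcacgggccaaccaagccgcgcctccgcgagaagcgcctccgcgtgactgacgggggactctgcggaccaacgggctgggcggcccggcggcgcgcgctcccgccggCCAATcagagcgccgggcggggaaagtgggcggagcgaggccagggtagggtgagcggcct
Ezh1, chr11:101226464-101226713, minus strand: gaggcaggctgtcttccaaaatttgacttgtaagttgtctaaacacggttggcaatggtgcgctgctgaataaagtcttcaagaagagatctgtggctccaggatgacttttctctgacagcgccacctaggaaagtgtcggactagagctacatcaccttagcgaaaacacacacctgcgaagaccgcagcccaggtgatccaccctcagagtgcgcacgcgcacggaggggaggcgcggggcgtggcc
Ezh2 from its start, chr6:47595001-47595030, minus strand: gcgTTTGGCGCtcggtccggtcgcgtccga

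The windows of 5 genes were searched on both strands for TTTGGCGC and TTTCGCGC (E2F), CCAAT, and TTTGAA, the word of the cell cycle homology region. Ezh2 held TTTGGCGC at base 4 after its start, a word found in 0.514% of the 32851 RefSeq promoters over 250 bases before and 50 after the start. Ezh2 held 3 CCAAT boxes before its start, 90, 64 and 11 bases from it, and Suz12 held 1, 61 bases from it. In the 250 bases before the start, 33.8% of promoters hold a CCAAT box. Eed held CCAAT 26 bases after its start, TTTGAA was found in Eed and Suz12 (17.9% of promoters), and Kdm6a and Ezh1 held none of these words. A match is a run of letters and was not shown to be a bound site, and its relation to the levels was not tested.

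The cells carried the macrophage markers measured: Adgre1, Csf1r, Cd68, Itgam, Mertk, Fcgr1 and Cd14 had mean log2 values from 8.34 for Mertk to 13.1 for Cd68. As a gauge of background, 20 markers of lymphocytes (B, T and NK cells) and of endothelium had a median of 3.99, a 90th percentile of 6.42 and a maximum of 7.51. The highest of them were Kdr (7.51), Vwf (7.20) and Cd22 (6.33). Kdr and Vwf differed between array numbers among genes averaging 6 or more (limma's F test, adjusted p below 0.05). They may therefore be detected genes, and the top of this range is a loose gauge. Array medians lay between 4.87 and 4.95. Neutrophil and precursor genes averaged 4.37 with hepcidin and 4.54 with PBS on the arrays numbered 1, against 5.41 to 5.98 on the other 6 arrays. The arrays numbered 1 therefore stood apart, and results that rest on them are given with and without them. The Y-linked genes Uty, Kdm5d and Eif2s3y had mean values of 2.83, 3.33 and 2.65 with hepcidin and 2.61, 3.42 and 2.60 with PBS, below the background median, and Xist stood at 11.7 with hepcidin and 11.8 with PBS. Uty is the Y-linked copy of Kdm6a, whose sequence is close enough that probes could respond to both, and its signal was at background here.

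Kdm6a, Ezh1, Ezh2, Eed and Suz12 lay above the background range on all 8 arrays, at 8.22 to 9.85, and Kdm6b, at 5.75 to 6.94, lay within its upper part on all 8. These values come from different probe sets, so they show detection and give no order of abundance between the genes. All 6 averaged 6 or more, the filter used in one of the alternatives, so none was lost to it.

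Kdm6b (Entrez gene 216850) showed the largest difference between treatments of the 6. It had log2 values of 6.94, 6.29, 6.12 and 6.71 on the hepcidin arrays numbered 1 to 4, against 6.39, 5.96, 5.75 and 6.64 on the PBS arrays numbered 1 to 4. The hepcidin value was the higher in all 4 pairs of arrays with the same number, but the groups overlapped, since the PBS arrays numbered 1 and 4 exceeded the hepcidin arrays numbered 2 and 3. The means were 6.52 ± 0.38 with hepcidin and 6.19 ± 0.40 with PBS (SD, n = 4 each), a difference of 0.33 ± 0.22 (SE) and a ratio of 1.26. This difference was smaller than the spread within either group. Within pairs it was 0.55, 0.33, 0.36 and 0.07 for numbers 1 to 4, and the SE of the mean difference was 0.09 when the number was used as a block. The smallest difference was in the pair with the highest PBS value, 6.64. The difference was 0.26 without both arrays numbered 1, and it ranged from 0.19 without the PBS array numbered 3 or the hepcidin array numbered 1 to 0.48 without the PBS array numbered 4.

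Kdm6a (22289), the X-linked demethylase gene, pointed the other way. It stood at 9.53, 9.48, 9.48 and 9.38 with hepcidin on numbers 1 to 4 and at 9.81, 9.58, 9.48 and 9.39 with PBS. All 4 pairs were lower with hepcidin, but in pairs 3 and 4 by 0.00 and 0.02 only, and the groups overlapped. The mean difference of -0.10 ± 0.10 (SE) drew on pair 1, at -0.28. It was -0.04 without both arrays numbered 1 and -0.02 without the PBS array of that number.

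**Figure D1:**
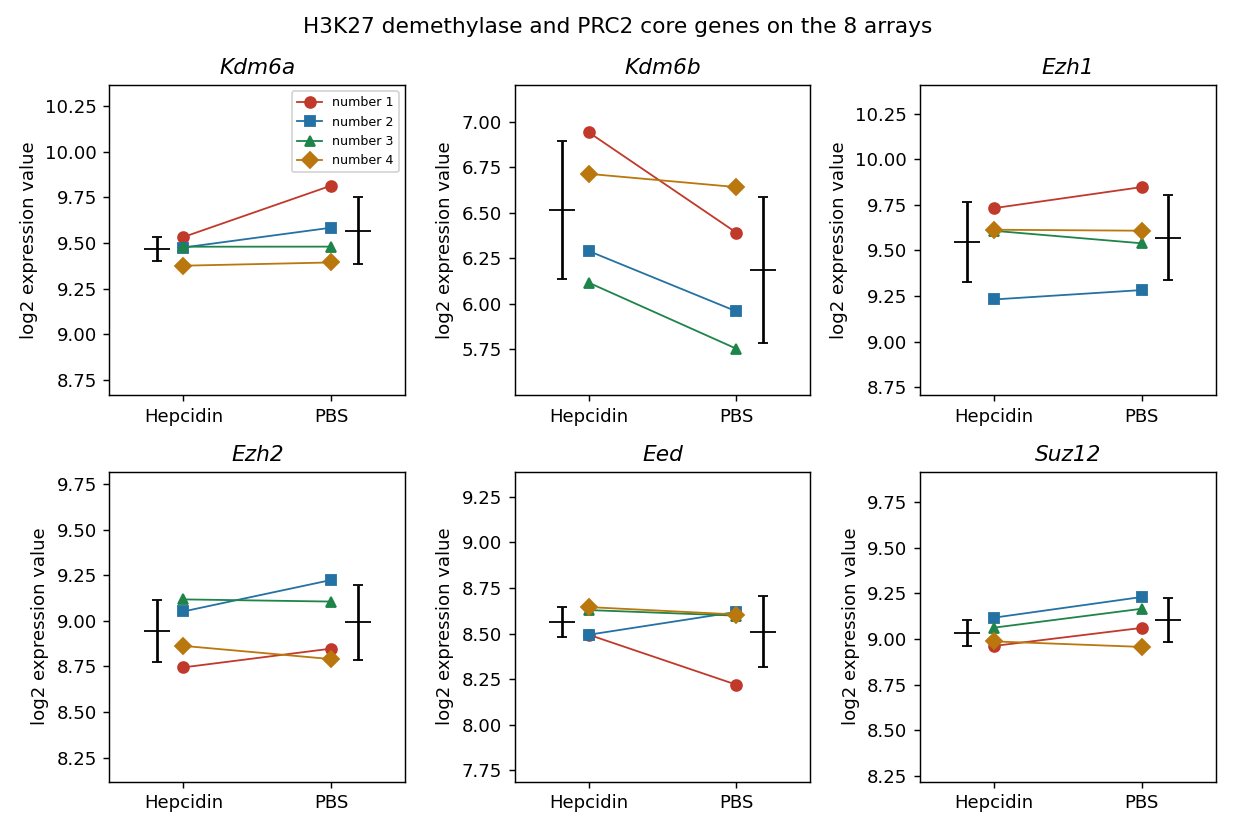
Log2 expression value (vertical axis, the same span of 1.7 in each panel) of the 6 genes on the hepcidin (left) and PBS (right) arrays. Lines join arrays with the same number and black marks are the mean ± SD (n = 4). Kdm6b was higher with hepcidin in all 4 pairs while its groups overlapped, and the lines of Ezh1 and Ezh2 lie apart by number more than they slope.

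The catalytic subunit genes of PRC2 differed little between treatments. Ezh2 (14056) stood at 8.74, 9.05, 9.12 and 8.86 with hepcidin on numbers 1 to 4 and at 8.85, 9.22, 9.11 and 8.79 with PBS. In both groups the arrays numbered 2 and 3 were the higher ones, and 2 of 4 pairs were higher with hepcidin. The mean difference was -0.05 ± 0.12 (SE). Ezh1 (14055) stood at 9.73, 9.23, 9.61 and 9.61 with hepcidin and at 9.85, 9.28, 9.54 and 9.61 with PBS. Number 2 was the lowest and number 1 the highest in both groups, and 2 of 4 pairs were higher with hepcidin, with a mean difference of -0.02 ± 0.14 (SE). The sign of both turned when a single array was left out. For Ezh2 this was the hepcidin array numbered 1 (0.02) or the PBS array numbered 2 (0.03). For Ezh1 it was the PBS array numbered 1 (0.07) or the hepcidin array numbered 2 (0.08).

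The scaffold and reader genes were as close. Suz12 (52615) stood at 8.96, 9.12, 9.06 and 8.99 with hepcidin on numbers 1 to 4, against 9.06, 9.23, 9.17 and 8.96 with PBS. It was lower with hepcidin in 3 of 4 pairs, with a mean difference of -0.07 ± 0.09 (SE), and its groups overlapped. Eed (13626) stood at 8.49, 8.49, 8.63 and 8.65 with hepcidin and at 8.22, 8.62, 8.60 and 8.61 with PBS. The PBS array numbered 1 lay apart from the other 7 arrays. The mean difference of Eed was 0.06 ± 0.11 (SE), and it was -0.02 without both arrays numbered 1. Each value after ± marked SE, here and elsewhere, is from the fit without a block, so it holds the spread between numbers. With the number as a block the SE was 0.08 for Kdm6a, 0.07 for Ezh1, 0.08 for Ezh2, 0.08 for Eed and 0.07 for Suz12.

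Of the 6 genes, 1 was higher in all 4 pairs, 1 was lower in all 4 and 4 were mixed. Among all 24011 genes, 5.69% were higher and 5.92% were lower in all 4 pairs. The groups did not overlap for 0 of the 6 and for 1.88% of all genes. A difference of at least the size seen in Kdm6b, in either direction, was found in 1.39% of genes. In limma over all genes, 0 of 24011 genes (0%) passed an adjusted p of 0.05 between hepcidin and PBS, while 686 had an unadjusted p below 0.05. With the replicate number as a block, limma called 1 gene (0.00416%), none of the 6. Nothing is read from these shares about the 6 genes, since they were chosen with this contrast in view.

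**Figure D2:**
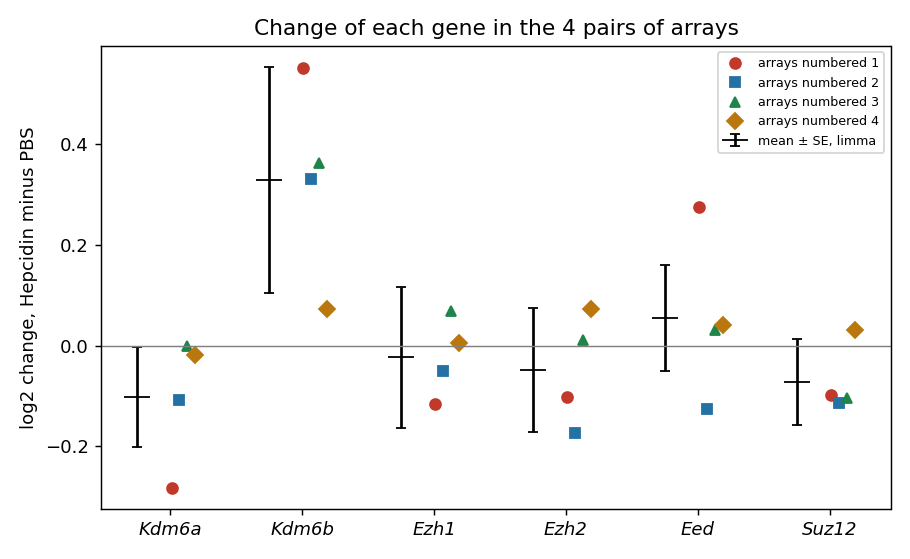
Log2 change, hepcidin minus PBS (vertical axis), of each gene: coloured points are the 4 pairs of arrays with the same number and black marks are the mean ± SE from limma without a block. Kdm6b lies above 0 in all pairs, from 0.07 to 0.55, while the pairs of Ezh1, Ezh2, Eed and Suz12 fall on both sides of 0.

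How the genes varied over the 8 arrays was then split by source. The total sum of squares was divided into treatment, number and the rest. Number accounted for 96.6% in Ezh1, 89.6% in Ezh2, 75.7% in Kdm6b, 74.9% in Suz12, 66.4% in Eed and 65.5% in Kdm6a. The median over the 9274 genes averaging 6 or more was 74.8%, so the 6 genes lay around it. The share of treatment was 19.1% in Kdm6b, 15.7% in Kdm6a, 14.9% in Suz12 and 0.355% to 4.34% in the other 3 genes, against a median of 2.94%. Nothing is read from the shares of treatment, since the genes were chosen with hepcidin against PBS in view.

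**Figure D3:**
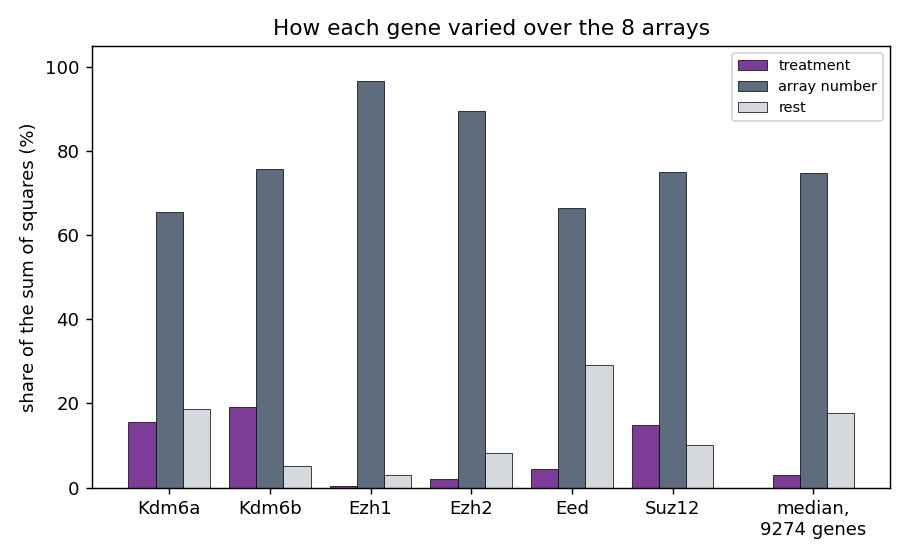
Share of each gene's sum of squares over the 8 arrays (vertical axis, percent) that goes with treatment, with array number and with the rest, for the 6 genes and as the median of 9274 genes averaging 6 or more. The bar for number is the tallest in all 6 genes, from 65.5% in Kdm6a to 96.6% in Ezh1.

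The difference between numbers is not part of the rule that chose the genes and was tested over all genes with limma's F test, with treatment as a term. That arrays differ by number was known when the genes were chosen. Kdm6b differed between numbers, with means of both treatments of 6.67, 6.12, 5.94 and 6.68 for numbers 1 to 4 and an adjusted p of 0.0245. Of the 6 genes this was the 1 that passed, against 5.6% of all genes and 11.9% of those averaging 6 or more. The call of Kdm6b did not hold without both arrays numbered 1, with an adjusted p of 0.0817. When single arrays were left out its adjusted p ran from 0.0393 to 0.0952, and it passed only without the hepcidin array numbered 4. Ezh1, with a range of 0.53 between the number means, had an adjusted p of 0.0740, and Ezh2, with a range of 0.34, one of 0.160. Without both arrays numbered 1 the adjusted p was 0.227 for Ezh1 and 0.325 for Ezh2. When single arrays were left out it ran from 0.119 to 0.290 for Ezh1 and from 0.208 to 0.347 for Ezh2. Both genes passed in 2 other fits. The values were 0.00975 and 0.0310 among the genes averaging 6 or more, and 0.00503 and 0.0315 with trend and robust variance. Many genes passed in these fits, 2894 of 9274 and 2844 of 24011. For Kdm6a, Eed and Suz12 the adjusted p was 0.416, 0.446 and 0.519, which does not show that they were equal between numbers.

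Ezh2 and Suz12 had their higher means on numbers 2 and 3 and their lower means on numbers 1 and 4. Neither passed the F test over all genes (adjusted p 0.160 and 0.519). Their ranges between number means were 0.34 and 0.20, against a median of 0.30 over genes averaging 6 or more. The number means were 8.80, 9.14, 9.11 and 8.83 for Ezh2 and 9.01, 9.17, 9.11 and 8.97 for Suz12. Kdm6b had the opposite order, with numbers 1 and 4 high. As a measure of likeness over the 8 arrays, without a test, Pearson's r was 0.903 between Ezh2 and Suz12, -0.897 between Ezh2 and Kdm6b and -0.698 between Ezh2 and Ezh1. Arrays with the same number are not independent, so these values rest largely on 4 numbers. Eed, the other core subunit gene, had an r of 0.363 with Ezh2 and 0.0729 with Suz12.

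Genes of the cell cycle, many of them E2F targets as Ezh2 is, had their highest mean on numbers 2 and 3 and their lowest on number 1. The mean over 29 genes was 8.95, 9.64, 9.64 and 9.23 on the hepcidin arrays numbered 1 to 4 and 8.94, 9.61, 9.63 and 9.25 on the PBS arrays. Of these genes, 23 of 29 differed between numbers in limma's F test, against 5.6% of all genes. Without both arrays numbered 1, 7 of 29 did, against 166 of 24011. In the fit of genes averaging 6 or more, 27 of 29 did, against 2894 of 9274. Cdk1, the kinase of mitotic entry, had number means of 8.93, 9.92, 9.84 and 9.25 (adjusted p 0.00400), and Mki67, a marker of cycling cells, had an adjusted p of 0.0901. All 29 genes were lower on number 1 than on numbers 2 and 3, and 23 of 29 were lower on number 4 as well. The remaining 6, named after their values were seen, were the replication genes Mcm2, Mcm6, Mcm7, Pcna, Cdc6 and Cdt1. Some of the 23 differed little on number 4: E2f1 had number means of 7.53, 8.22, 8.24 and 8.22 and Mcm4 had 9.09, 9.79, 9.78 and 9.76. Mcm3, Mcm5, Rrm1, Rrm2, Tyms and Tk1 were among the 23 as well, and Ezh2 (8.83 on number 4) was lower there too. In bulk samples, fewer cycling cells and less of these RNAs per cell cannot be told apart. The part of this pattern in the levels of Ezh2, Suz12 and Kdm6b was not tested. Neutrophil and precursor genes moved with the numbers too, 8 of 10 of them passing with all arrays and 1 of 10 without both arrays numbered 1. Macrophage markers averaged 10.9 with hepcidin and 10.8 with PBS on number 1, against 11.3 to 11.4 on the others.

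**Figure D4:**
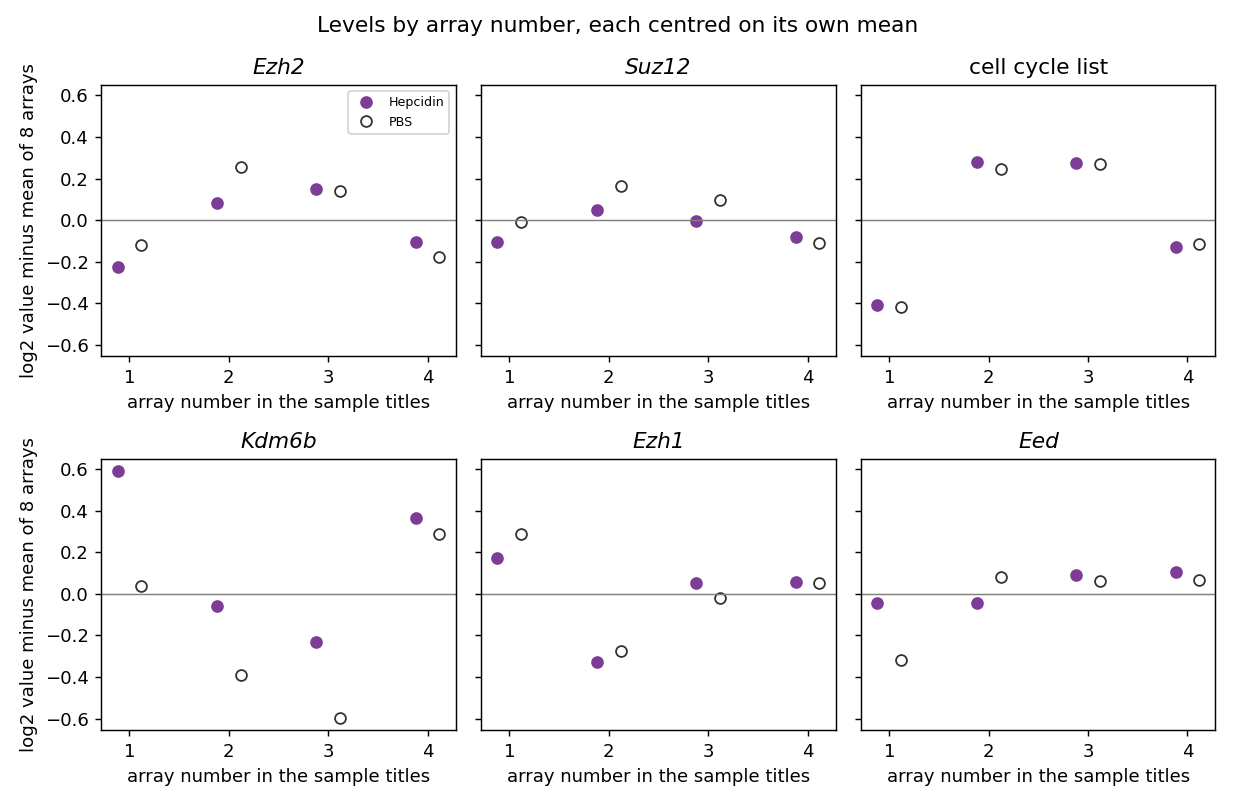
Log2 value minus the mean of the 8 arrays (vertical axis) by array number (horizontal axis) for 5 of the genes and for the mean of 29 cell cycle genes, with hepcidin as filled and PBS as open points. Ezh2, Suz12 and the cell cycle mean are higher on numbers 2 and 3 than on number 4, and Kdm6b is higher on numbers 1 and 4.

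The genes whose pattern over the 8 arrays was most like that of a member were searched among 9268 genes averaging 6 or more, as a description. For Ezh2 they were Fancm (r = 0.983), a helicase gene of DNA crosslink repair, Tmpo (0.981), a gene of nuclear envelope proteins, Pdik1l (0.981), Brip1 (0.978), a helicase gene of DNA repair, and Cdca2 (0.976), a gene of mitotic chromosomes. For Suz12 they were Abcd2 (0.973), Haus6 (0.967) and Sgcb (0.959). For Kdm6b they were Srxn1 (0.990), the gene of sulfiredoxin, the peptide transporter gene Slc15a3 (0.978), Dnajc16 (0.976), the integrin gene Itga5 (0.967) and Plekhm3 (0.960). For Ezh1 they were Gbf1 (0.983), Ampd3 (0.976) and Erp44 (0.970), for Kdm6a Shoc2 (0.987), the retinoblastoma gene Rb1 (0.984) and Dbt (0.980), and for Eed Cybc1 (0.989), Stk35 (0.964) and Cby1 (0.962). In a search of that size over 4 numbers, a high r alone sets no gene apart. Whether the genes found share a function was not tested.

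No gene of the wider H3K27 machinery passed the test between treatments. In 5 lists of chromatin regulators, 67 genes in all, 0 passed in limma in either direction, 1 had an unadjusted p under 0.05, and 27 had a positive and 40 a negative difference, with a median of -0.01 against 0.00 over all genes. The lists hold the accessory subunits of PRC2 and the subunits of PRC1, which reads the mark and ubiquitinates histone H2A. They also hold other demethylases of the JmjC family and the KMT2C and KMT2D complexes that contain KDM6A. The acetylation and deubiquitination list holds enzymes and partner genes of H3K27 acetylation and H2A deubiquitination, and the deacetylase genes Hdac1, Hdac2 and Hdac3. With the replicate block, 0 of all 145 genes in the 9 lists passed, with 7 at an unadjusted p under 0.05, against 4 without it.

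Of the 11 accessory subunits of PRC2, 4 had a positive difference and 7 a negative one, with values from -0.09 to 0.19. Rbbp4, a histone-binding subunit, stood at 8.66, 9.07, 9.05 and 8.87 with hepcidin and at 8.21, 8.87, 8.90 and 8.90 with PBS, a difference of 0.19 ± 0.17 (SE). As with Eed, the PBS array numbered 1 was the lowest. Phf1, a reader of H3K36 methylation that joins PRC2, differed by -0.08 ± 0.09. Among the 21 subunits of PRC1, 12 were positive and 9 negative. Bmi1, a RING-finger subunit, stood at 6.13, 5.90, 6.26 and 6.31 with hepcidin and at 6.15, 5.51, 5.83 and 5.88 with PBS. Its groups overlapped through the PBS array numbered 1, and its difference was 0.31 ± 0.14 (SE). Cbx8, a chromodomain subunit, differed by -0.13 ± 0.09 at a level of 4.08 with hepcidin and 4.22 with PBS, in the range of background.

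In the complexes that carry KDM6A, 3 of 9 genes were positive and 6 negative. The coactivator gene Ncoa6 differed by -0.12 ± 0.12 and Pagr1a by 0.15 ± 0.17 (SE). Of 15 other JmjC demethylase genes, 4 were positive and 11 negative. Jmjd1c was lower with hepcidin in all 4 pairs, with a mean difference of -0.13 ± 0.10 (SE), at 9.83 to 10.1 with hepcidin and 9.97 to 10.3 with PBS. Kdm4d was lower in all 4 pairs as well (-0.21 ± 0.09), at 3.08 to 3.45 with hepcidin and 3.46 to 3.57 with PBS, below the background median. Of the 67 regulators, 3 (Jmjd1c, Kdm4d and Phc2) were lower in all 4 pairs and 0 higher, against 5.92% and 5.69% of all genes. In the acetylation and deubiquitination list, 4 of 11 were positive and 7 negative. Ep300, the acetyltransferase gene p300, differed by -0.12 ± 0.11, and Bap1, the H2A deubiquitinase gene, by 0.11 ± 0.11. Between numbers, 3 of the 67 regulators passed the F test, against 5.6% of all genes and 11.9% of those averaging 6 or more. Without both arrays numbered 1, 0 passed, against 166 of all 24011 genes. In the fit of genes averaging 6 or more 14 of 57 did, against 2894 of 9274. The 3 are named after their values were seen: Cbx6 (adjusted p 0.0172), the PRC1 recruiter gene Kdm2b (0.0272) and the H3K4 demethylase gene Kdm5b (0.00778). Kdm5b had number means of 7.67, 6.62, 6.97 and 7.24, high on numbers 1 and 4 as Kdm6b was. Cbx6 (4.80, 5.58, 5.85 and 5.55) and Kdm2b (7.08, 7.45, 7.81 and 7.51) were lowest on number 1 and highest on number 3.

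Genes that Polycomb is known to silence, the Hox clusters with Cdkn2a and Cdkn2b, were dim. Of 40 measured, 39 had a mean level under 6 and the median with PBS was 4.17. Cdkn2b, which encodes a cell cycle inhibitor, averaged 6.19 in both groups (6.185 with hepcidin, 6.189 with PBS). In limma 0 of 40 passed between treatments, with 3 at an unadjusted p under 0.05, 13 positive and 27 negative. The groups did not overlap for 3 of the 40 genes, 2 higher and 1 lower with hepcidin, against 1.88% of all genes. In all 4 pairs, 3 genes were higher and 3 lower, against 5.69% and 5.92% of all genes. Hoxb9 stood at 4.48 to 4.77 with hepcidin and 4.31 to 4.35 with PBS, a difference of 0.25 ± 0.08 (SE). Hoxb5 stood at 4.23 to 4.50 with hepcidin and 4.01 to 4.2 with PBS, a difference of 0.25 ± 0.09 (SE). Hoxa5, the gene without overlap in the other direction, stood at 3.20 to 3.24 with hepcidin and 3.28 to 3.45 with PBS, a difference of -0.14 ± 0.07 (SE). Hoxb9 and Hoxb5 lay near the background median of 3.99 and Hoxa5 below it, all 3 with an adjusted p of 1.00 in limma.

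Of 5 alternative activation genes tied to KDM6B, 0 passed between treatments, with differences from -0.11 to 0.04 and 0 at an unadjusted p under 0.05. Irf4 stood at 4.77, 5.33, 5.12 and 4.98 with hepcidin and at 4.88, 5.54, 5.45 and 4.78 with PBS, within the range of background markers, a difference of -0.11 ± 0.19 (SE). Mrc1, the mannose receptor gene, differed by -0.05 ± 0.20. Between numbers, 4 of these 5 genes passed the F test, against 5.6% of all genes. Without both arrays numbered 1, 3 of the 5 passed, against 166 of 24011 genes. The 5 genes did not share one order: number means were 8.11, 8.02, 9.48 and 9.60 for Arg1 (arginase) and 9.05, 8.99, 9.03 and 7.72 for Chil3 (Ym1).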

How the data were processed

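The values are log2 expression values deposited by the authors for 24973 probe sets on 8 arrays, which per the submitters' processing notes came from RMA (background correction, a common distribution, probe set summary) in affy 1.36.1. No source used here gives the probe set definition or genome build. The deposited values, 1.73 to 13.6, were taken unchanged and unfiltered. The platform annotation named 24015 probe sets with 1 gene, and for 4 symbols with several the brightest was kept (24011 genes). The number of arrays limits the precision.

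Hepcidin and PBS (4 arrays each) were compared with limma 3.58.1 in R 4.3.3 (lmFit, eBayes; no block), and the numbers with an F test beside treatment, both adjusted by Benjamini-Hochberg over all genes (threshold 0.05). Differences are hepcidin minus PBS. Numbers pair the arrays: deviations from group means correlated at 0.344 to 0.548 between equal numbers and at -0.356 to 0.124 otherwise. The members, lists and rule for named genes (the members, the 2 list genes with the smallest p where fewer passed, sex-linked genes, the closest patterns) were chosen with earlier results of these data known. Alternatives were other scalings, filters, variance models, blocks and left-out arrays. On simulated data with 24011 genes, limma recovered 34.3% of log2 changes of 0.5 and 83.6% of changes of 1 between treatments. For a shift in 1 number, its F test found 1.49% at a size of 0.5, 52.2% at 1 and 89.4% at 2. That simulation held no other differences between numbers, unlike the data, so these shares need not hold for the F test reported here. Figures used matplotlib 3.10.9.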

Additional observations from a re-analysis of the deposited data

Results flagged for a closer look

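Within groups of 4 arrays, 52 groups of 26 named genes were examined for a single array far from the other 3 (Dixon's ratio above its 95% critical value), and 3 were found, where chance gives about 1 in 20. All 3 were the PBS array numbered 1. Eed had a value of 8.22 there, against 8.60 to 8.62 on the other 3 PBS arrays. Rbbp4, which encodes another PRC2 subunit, had 8.21, against 8.87 to 8.90. Ep300 had 10.4, against 10.0 to 10.1.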

How the results depend on the processing

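The sign of the difference between hepcidin and PBS held in all 14 alternatives for Kdm6a, Kdm6b and Suz12, and turned in 4 for Ezh1, 2 for Ezh2 and 3 for Eed, each time on leaving out 1 array or both arrays numbered 1. Each value moved by less than the larger of the gene's SDs within the 2 groups. For Kdm6a and Eed the largest move exceeded the smaller SD, that of the hepcidin arrays. The count of genes called between treatments, 0, became 1 with the replicate block, 5 with the replicate block as a random term, 1 without both arrays numbered 1 with the block, and 3 among genes averaging 6 or more. Leaving out single arrays gave 0 to 2. The related genes called stayed at 0 in all 17 alternatives. Genes differing between numbers, 1345, became 166 without both arrays numbered 1, 2894 among genes averaging 6 or more and 2844 with trend and robust variance, and 508 to 827 when single arrays were left out. Of the 6 genes, 1 differed between numbers, against 0 without both arrays numbered 1, 3 among genes averaging 6 or more, 3 with trend and robust variance and 0 to 1 without single arrays. With fewer arrays the fits have fewer degrees of freedom, and the filter leaves fewer genes to adjust over. The cell cycle list without number 1 and among genes averaging 6 or more was added after seeing the data. Signal within the range of the background markers limits Kdm6b, Irf4 and the Hox genes.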
